A study of Mus musculus with 27 samples.

Results

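The genes Upk3b, Upk1b, Msln, Wt1, Aldh1a1, Krt7, Krt8, Krt18, Krt19 and Krt14, which mark mesothelium and simple or stratified epithelium, were followed across 3 lines of mouse embryonic fibroblasts. They are 10 of the 18193 genes measured and are read by 18 of the 34945 probe sets that carry a single gene symbol. The members were given by name. Upk3b and Aldh1a1 were taken into the list because their signal is lost in both lines that are not wild type, so their differences between those lines and the wild type are given as a description with no test. The other 8 members were tested, though the list as a whole was chosen with earlier results of these data known.

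The cells were a PKBalpha knockout line, a line labelled R, in which the labels say that PKBalpha was put back into the knockout, and a wild-type line. PKBalpha is the protein kinase encoded by Akt1. Each line was taken untreated, 4 h after 10 Gy of gamma radiation and 24 h after it, with 3 samples per group, numbered 0 to 2, that the labels call biological replicates, which gave 9 groups and 27 Affymetrix arrays. All cells were female and at passage 45, and were kept in medium with 10% serum. Each genotype was 1 line, so replicates show the spread within a line, and the lines' genotype cannot be told apart from any other difference between them. The time that untreated cells spent in culture is not stated. The sample titles set the groups, since the descriptions of the 6 irradiated wild-type samples call them untreated.

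Mesothelium is the sheet of flat cells that covers the inner organs and lines the body cavities. It arises from the mesoderm of the embryo, and it is unusual in carrying keratins, which are the intermediate filament proteins of epithelia, beside the vimentin of mesenchymal cells. Uroplakins are membrane proteins of the bladder lining that mesothelial cells also make in part, mesothelin is a surface protein of mesothelium, WT1 is a zinc finger transcription factor of mesothelium, kidney and gonad, and ALDH1A1 turns retinaldehyde into retinoic acid.

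Values are the linear intensities that the authors deposited, scaled to the same trimmed mean on every array. A gene is read by its brightest probe set unless another is named. The background level was an intensity of 48.3, the highest of 243 values read in these female cells by 9 probe sets of the Y-linked genes Eif2s3y, Uty and Kdm5d. Over all 20 Y-linked probe sets the highest of 540 values was 74.5, so levels between these 2 values lie close to background. Where a group mean lay below background, its fold is a lower bound. For this bound, each array below background was set to the background level, and any other array of the group kept its value. Differences are in log2 units with their standard error (SE) from the limma model, and adjusted p-values are limma's after Benjamini-Hochberg adjustment over all 18193 genes, called at 0.05. The p-values measure only the spread between these samples.

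Akt1, the gene that separates the lines by label, had a geometric mean of 14.6 in untreated knockout cells, 20.9 in the R-labelled line and 3533 in wild-type cells. Akt1 in the R-labelled line was lower than in the wild type by at least 73.1-fold (log2 difference -7.40 ± 0.87, SE, adjusted p = 3e-06). The restored PKBalpha of the labels was thus not seen at this probe set, and whether the probes match the transcript that was put back is not known. Of the 27 arrays, 5 stood apart by the ratio of 3' to 5' signal of Gapdh, a housekeeping gene (log2 ratio from -0.187 to 0.16, against -0.466 to -0.298 on the other 22). They were 1 of untreated knockout cells, 1 of untreated and 1 of 24 h cells of the R-labelled line, and 1 of untreated and 1 of 4 h wild-type cells. All 17 fibroblast markers measured lay above background in every line, and their summed intensity ranged over arrays from 196141 to 250953 in the knockout, from 193308 to 264608 in the R-labelled line and from 177545 to 238054 in the wild type.

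Most of these genes were far brighter in the wild-type line than in the other lines. Upk1b, Msln, Wt1, Krt7 and Krt14 were at least 9.65-fold lower in untreated cells of both other lines than in wild-type cells, and their groups did not overlap, as for 29.3% of all genes in the knockout and 28.7% in the R-labelled line. Upk3b and Aldh1a1 have the same pattern by choice. Krt8 was close to background and lower in the knockout, Krt18 was near or below background in all lines, and Krt19 had higher means in the other lines, with no difference past the threshold. In RNA from whole cultures, fewer cells of a type and less RNA per cell cannot be told apart.

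**Figure D1:**
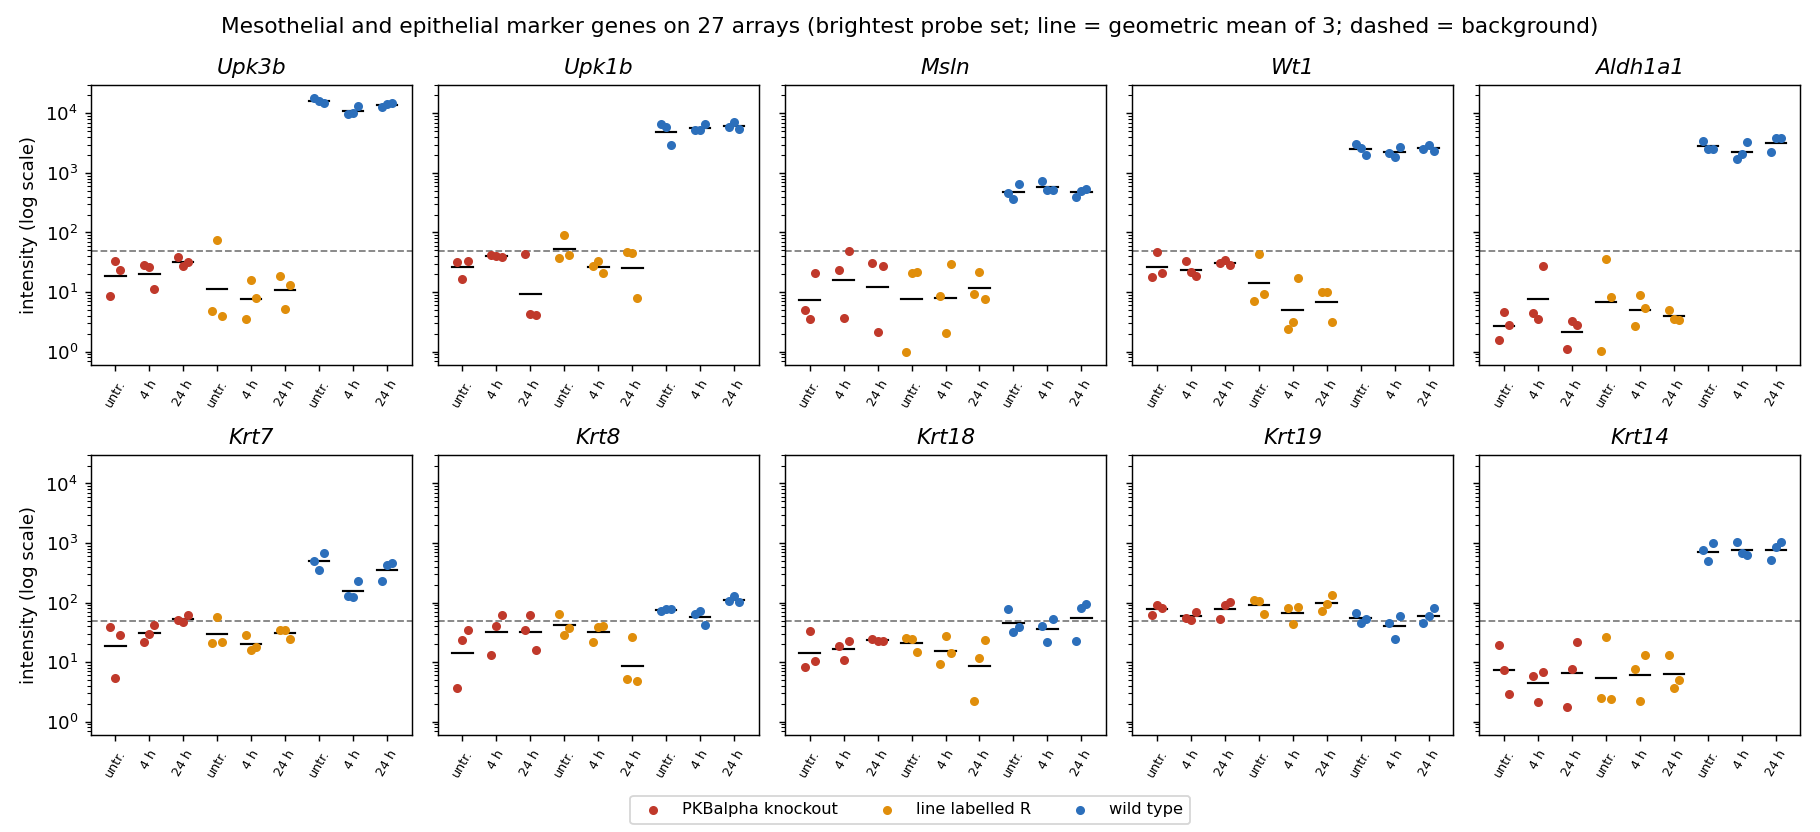
Intensity of the 10 genes (log axis) on each of 27 arrays, 3 per group, with the knockout, the R-labelled line and the wild type from left to right and untreated, 4 h and 24 h within each line. Points are arrays, black lines are geometric means and the dashed line is the background level of 48.3, above which the wild-type arrays stand alone for Upk3b, Upk1b, Msln, Wt1, Aldh1a1 and Krt14 apart from single points near the line.

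The promoters of members whose signal moved together carry these letters, with that of Krt7, the member with the largest difference at 4 h in the wild type. RefSeq gave promoter windows on build GRCm38.p6 for 6 of the 10 members, and the other 4 (Upk1b, Msln, Wt1 and Krt19) are named only. A window holds 250 bases before and 50 after a gene's start. Capitals mark matches, on either strand, of 8 motifs that were searched in 32851 windows of this length. The TATA box, TATAAA, was in 13.6% of all windows. The GATA motif, AGATAA, was in 11.2% of them. For SP1 the letters GGGCGG were in 35.7%. For EGR factors and WT1 the letters GNGTGGGNG were in 14.3%. For TEAD factors the letters GGAATG were in 14.7%. For AP-1 the letters TGANTCA were in 7.81%. For nuclear receptors the letters AGGTCA were in 16.3%. The CCAAT box, CCAAT, was in 37.4%. The windows are Upk3b at chr5:136038246-136038545 on the plus strand, the 2 listed starts of Aldh1a1 at chr19:20492333-20492632 and chr19:20601718-20602017 on the plus strand, Krt14 at chr11:100205981-100206280 on the minus strand and Krt7 at chr15:101412153-101412452 on the plus strand.
Upk3b: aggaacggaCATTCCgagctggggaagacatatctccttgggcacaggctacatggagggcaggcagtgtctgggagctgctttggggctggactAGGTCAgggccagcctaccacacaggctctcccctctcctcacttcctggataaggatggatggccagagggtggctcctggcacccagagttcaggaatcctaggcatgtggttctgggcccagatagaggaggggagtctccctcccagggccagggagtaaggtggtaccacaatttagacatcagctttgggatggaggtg
Aldh1a1 first start: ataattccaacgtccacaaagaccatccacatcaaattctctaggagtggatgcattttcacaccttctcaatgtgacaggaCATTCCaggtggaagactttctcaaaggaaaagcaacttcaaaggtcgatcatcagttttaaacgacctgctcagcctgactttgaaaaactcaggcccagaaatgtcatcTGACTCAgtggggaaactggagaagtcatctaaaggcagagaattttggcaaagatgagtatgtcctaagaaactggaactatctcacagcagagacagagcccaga
Aldh1a1 second start: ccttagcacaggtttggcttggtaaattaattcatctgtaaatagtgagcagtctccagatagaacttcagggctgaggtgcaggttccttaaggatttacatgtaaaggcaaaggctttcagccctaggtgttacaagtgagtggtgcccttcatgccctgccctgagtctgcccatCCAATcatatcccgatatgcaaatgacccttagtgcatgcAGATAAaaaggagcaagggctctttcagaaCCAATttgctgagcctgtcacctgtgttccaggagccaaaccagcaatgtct
Krt14: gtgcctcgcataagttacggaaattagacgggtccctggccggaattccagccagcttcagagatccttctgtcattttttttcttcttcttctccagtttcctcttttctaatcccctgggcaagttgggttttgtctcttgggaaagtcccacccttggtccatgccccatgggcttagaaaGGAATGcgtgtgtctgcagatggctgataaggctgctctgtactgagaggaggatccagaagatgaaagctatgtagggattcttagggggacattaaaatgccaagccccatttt
Krt7: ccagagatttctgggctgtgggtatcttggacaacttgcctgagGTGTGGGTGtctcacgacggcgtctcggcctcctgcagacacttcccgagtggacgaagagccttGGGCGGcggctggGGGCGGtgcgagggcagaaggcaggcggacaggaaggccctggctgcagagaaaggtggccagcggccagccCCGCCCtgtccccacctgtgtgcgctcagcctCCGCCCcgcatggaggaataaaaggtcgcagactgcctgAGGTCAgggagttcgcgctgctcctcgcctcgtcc

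The letters GGAATG, which TEAD factors bind, occur once in 3 of the windows, 241 bases before the start of Upk3b, 168 before the first start of Aldh1a1 and 66 before that of Krt14. They do not occur in the windows of the second Aldh1a1 start, Krt7, Krt8 or Krt18. The second Aldh1a1 start has AGATAA 32 bases before it and CCAAT 72 and 2 bases before it, and which start these cells use was not tested. Krt7 has 4 matches of GGGCGG and 1 of GNGTGGGNG, which lies 206 bases before the start. The window of Krt7 has 21 CpG pairs, against 2 in that of Upk3b, 3 and 1 in those of the first and second start of Aldh1a1, 5 in that of Krt14 and a median of 7 over all windows. The letters AGGTCA occur in the windows of Upk3b, Krt7, Krt8 and Krt18, and TGANTCA in that of the first Aldh1a1 start, overlapping no other match. TATAAA occurs in none of the 5 windows printed. These matches describe the letters only.

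Among the surface proteins, Upk3b was above background on every wild-type array. This uroplakin forms pairs with uroplakin 1b in the bladder lining and is a marker of mesothelium. Its intensities in untreated cells were 8.52, 33.7 and 23.1 in the knockout, 4.77, 75.5 and 3.95 in the R-labelled line, and 18372, 16144 and 14831 in the wild type. The wild-type arrays stood far above all others, and the level was at least 339-fold lower in knockout cells and at least 292-fold lower in the R-labelled line. The second bound is the smaller one because the array of 75.5, above background, kept its value. The first probe set is of a kind whose probes can match other transcripts, and the second is not. The second probe set of Upk3b read 5.05, 2.59 and 1.79 in untreated knockout cells, 2.14, 60.2 and 7.85 in the R-labelled line, and 9977, 8371 and 7784 in wild-type cells. Both probe sets have the same outlier, replicate 1 of the untreated R-labelled line, which is 1 of the 5 arrays that stood apart. The first probe set's difference between that line and the wild type was -10.51 ± 0.81, and -11.88 ± 0.60 without this array.

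That array stood out for several members. Over the 13 probe sets of the 7 members that were bright in the wild type, it was the highest of the 9 arrays of the R-labelled line for 9 probe sets, and 5 of the 13 lay above background on it. The same array was the highest of that line for 8.66% of 7388 genes whose mean lay below background there. No other array of the line had any of the 13 probe sets above background. The cause was not tested. Without it, Upk1b, Msln, Wt1, Krt7 and Krt14 remained lower in the untreated R-labelled line than in the wild type, with log2 differences from -8.29 to -4.53 and adjusted p-values from 2.1e-08 to 0.0015.

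Upk1b, a four-span membrane protein that partners uroplakin 3 proteins, was read by 4 probe sets. On the brightest, untreated cells had 31.4, 16.7 and 33.4 in the knockout, 36.8, 91.9 and 41.2 in the R-labelled line, and 6640, 5831 and 2904 in the wild type. The lowest wild-type array was more than an order of magnitude above every other array. Upk1b was at least 99.9-fold lower in knockout cells (-7.54 ± 0.72, adjusted p = 1.9e-07) and was lower in the R-labelled line too (-6.54 ± 0.72, adjusted p = 1.2e-06), where its mean of 51.8 lay close to background and 1 of 3 arrays passed it. All 4 probe sets were lower in both lines, with adjusted p-values over 34945 probe sets from 2.8e-07 to 0.014 in the knockout and from 2.5e-07 to 0.0048 in the R-labelled line. The brightest is not of the kind whose probes can match other transcripts, but some of the other sets are.

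Msln encodes mesothelin. It read 5.09, 3.52 and 21 in untreated knockout cells, 0.988, 20.7 and 21.9 in the R-labelled line, and 466, 363 and 663 in wild-type cells. Every array of the first 2 groups was below background and every wild-type array above it. Msln was at least 9.99-fold lower in knockout cells (-6.06 ± 1.22, adjusted p = 0.0012) and in the R-labelled line (-5.98 ± 1.22, adjusted p = 0.0013). In a fit of the 6 compared arrays alone, the adjusted p for the R-labelled line was 0.06.

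Wt1 was read at 18.1, 46.9 and 20.5 in untreated knockout cells, 7.03, 43.4 and 9.15 in the R-labelled line, and 3072, 2584 and 2005 in wild-type cells. No array of the knockout or of the R-labelled line passed background at any time, and the 9 wild-type arrays ranged from 1865 to 3072. The probe set that read Wt1 is also of a kind whose probes can match other transcripts. Wt1 was at least 52.1-fold lower in untreated cells of the knockout (-6.60 ± 0.66, adjusted p = 3.8e-07) and of the R-labelled line (-7.48 ± 0.66, adjusted p = 6.2e-08). Wt1os, the antisense transcript next to Wt1 on chromosome 2, had a mean of 2.05 in the knockout, 2.32 in the R-labelled line and 295 in the wild type, and was at least 6.11-fold lower in both lines (adjusted p = 0.0017 in the knockout and 0.0021 in the R-labelled line).

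Aldh1a1 had intensities of 1.54, 4.55 and 2.75 in untreated knockout cells, 1.03, 35.8 and 8.4 in the R-labelled line, and 3415, 2502 and 2550 in wild-type cells. It was below background on all 18 arrays of the first 2 lines and was at least 57.8-fold lower in each. Aldh1a7, a close paralog that lies next to Aldh1a1 on chromosome 19, was not among the members picked for loss. Its untreated arrays had 9.52, 3.22 and 16.8 in the knockout, 12.2, 16.5 and 20.1 in the R-labelled line, and 248, 161 and 178 in the wild type. Aldh1a7 was at least 3.98-fold lower in knockout cells (-4.59 ± 0.53, adjusted p = 2.8e-06) and in the R-labelled line (-3.60 ± 0.53, adjusted p = 5e-05). How far the probe sets of these paralogs read each other's transcript was not tested.

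The keratins fell into separate patterns. Krt7, a type II keratin of simple epithelia and mesothelium, read 39.1, 5.52 and 28.6 in untreated knockout cells, 21.2, 57.7 and 21.6 in the R-labelled line, and 507, 355 and 673 in wild-type cells. All wild-type arrays were above all others. Krt7 was at least 10.2-fold lower in knockout cells (-4.75 ± 0.55, adjusted p = 2.6e-06) and in the R-labelled line by at least 9.65-fold (-4.05 ± 0.55, adjusted p = 1.7e-05).

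Krt14, a type I keratin of basal cells in stratified epithelia, had 19.6, 7.38 and 2.92 in untreated knockout cells, 2.55, 26.4 and 2.43 in the R-labelled line, and 762, 491 and 997 in wild-type cells. Krt14 was at least 14.9-fold lower in knockout cells (-6.59 ± 0.96, adjusted p = 4e-05) and in the R-labelled line (-7.04 ± 0.96, adjusted p = 1.7e-05). The brightest set is of the kind whose probes can match other transcripts. A second probe set, not of that kind, was lower too, by -7.56 ± 0.55 in the knockout and by -6.94 ± 0.55 in the R-labelled line. The third read 1.94 to 40.5 in the knockout, 3.66 to 24.7 in the R-labelled line and 2.42 to 31.3 in the wild type, all below background.

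Krt8 and Krt18 form the filament pair of simple epithelia and are neighbours on chromosome 15. Krt8 had 3.64, 24 and 34.1 in untreated knockout cells, 64, 29 and 38 in the R-labelled line, and 72.6, 78 and 79.2 in wild-type cells. The wild-type values were just above the others and close to background. Krt8 was at least 1.58-fold lower in knockout cells (-2.41 ± 0.75, adjusted p = 0.029), a call that was lost without any 1 wild-type untreated replicate, without knockout replicate 0 or in a fit of the compared arrays alone, with adjusted p from 5.4e-05 to 0.21 over the alternatives. In the R-labelled line its difference was -0.89 ± 0.75 (adjusted p = 0.49). The other 2 probe sets of Krt8, both of the kind that can match other transcripts, were lower in knockout cells (adjusted p = 0.014 and 0.0085) and in the R-labelled line (adjusted p = 0.0066 and 0.006), so the probe sets disagree for that line.

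Krt18 read 8.36, 33.5 and 10.5 in untreated knockout cells, 25.9, 24.4 and 14.9 in the R-labelled line, and 78.5, 32 and 38.8 in wild-type cells. Only 4 of the 9 wild-type arrays passed background over the 3 times. The differences of -1.68 ± 0.72 in knockout cells (adjusted p = 0.12) and -1.12 ± 0.72 in the R-labelled line (adjusted p = 0.34) did not pass the threshold, and no fold is given because all 3 means lay below background.

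Krt19, the smallest keratin, which can pair with several type II keratins, did not follow the others. It had 61.1, 92.4 and 82.6 in untreated knockout cells, 109, 107 and 64.4 in the R-labelled line, and 66.6, 46.2 and 53 in wild-type cells. The groups overlapped, and the differences were 0.51 ± 0.36 in knockout cells (adjusted p = 0.4) and 0.74 ± 0.36 in the R-labelled line (adjusted p = 0.18). Of its 9 arrays, 9 passed background in the knockout, 8 in the R-labelled line and 5 in the wild type. Krt19 lies on chromosome 11 between Krt15 and Krt14, which were both lower in the other 2 lines than in the wild type.

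**Figure D2:**
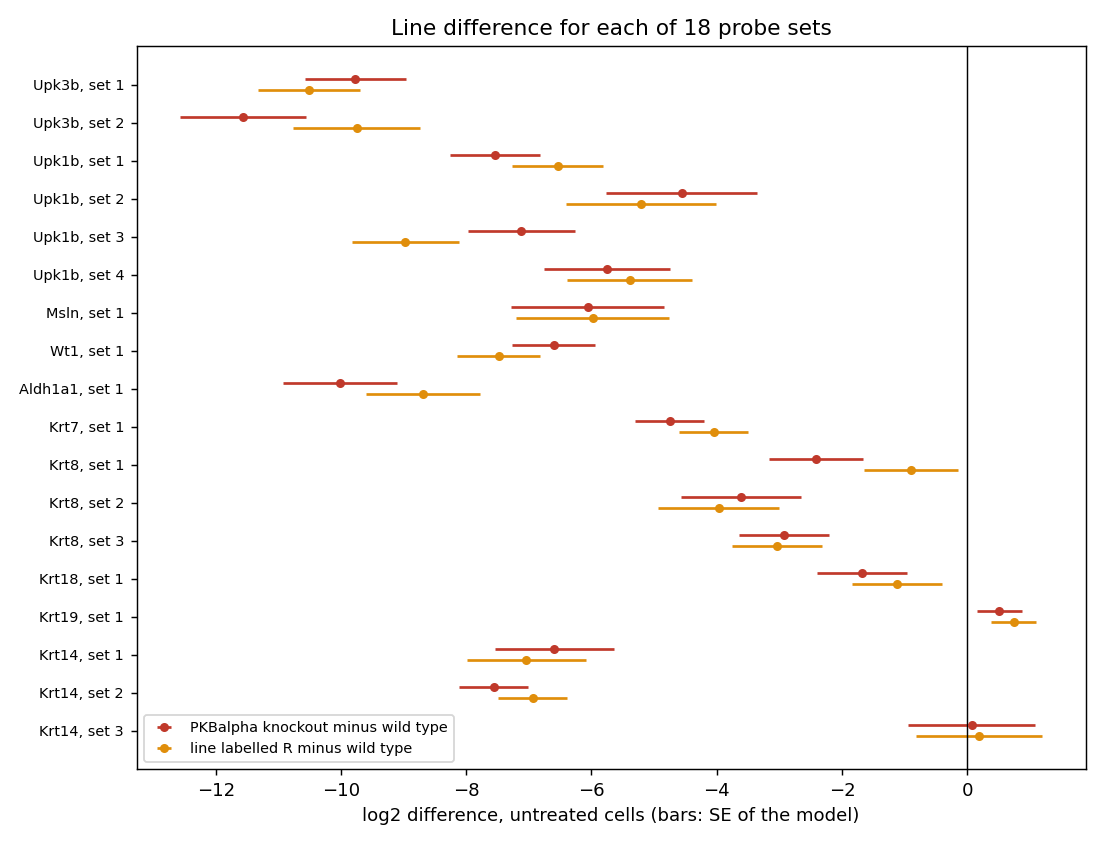
Log2 difference from the wild type in untreated cells for each of the 18 probe sets of the 10 genes (set 1 is the brightest), with the knockout and the R-labelled line as points and the model's SE as bars. Both lines lie far left of 0 for every probe set of Upk3b, Upk1b, Msln, Wt1, Aldh1a1 and Krt7, while Krt19 and the third set of Krt14 lie near 0.

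Counted over the 8 members not picked for loss, 6 were lower in untreated knockout cells than in wild-type cells and none was higher, where 9.83% of all genes were lower and 7.77% higher. In the R-labelled line 5 of the 8 were lower and none higher, against 9.39% of all genes lower and 9.39% higher. The median log2 difference of the 8 was -5.41 in the knockout and -5.02 in the R-labelled line, against medians of -0.00 and 0.06 over all genes. Both comparisons share the wild-type arrays. The 8 members too were chosen with earlier results of these data known, so the counts are a description.

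The line differences were present at both times after irradiation. At 4 h Upk1b, Msln, Wt1, Krt7 and Krt14 were lower in both lines, which is 5 of 8 members in the knockout (8.86% of all genes lower, 5.9% higher) and 5 in the R-labelled line (9.07% lower, 6.99% higher). At 24 h the same 5 were lower in knockout cells (10.1% of all genes lower, 8.6% higher), and 7 of 8 in the R-labelled line (9.78% lower, 10.9% higher), with Krt8 and Krt18 added. Krt8 had 5.16, 26.8 and 4.83 in the R-labelled line at 24 h, against 106, 128 and 103 in the wild type, and was at least 2.32-fold lower (-3.68 ± 0.75, adjusted p = 0.0011). Krt18 had 2.25, 11.9 and 23.3 in the R-labelled line at 24 h, against 23.1, 80.2 and 95.4 in the wild type, so the groups overlapped. Its difference of -2.72 ± 0.72 (adjusted p = 0.0095) lost its call without replicate 0 of the R-labelled line, without wild-type replicate 2 or in a fit of the compared arrays alone, with adjusted p from 0.0024 to 0.17 over the alternatives.

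Between the R-labelled line and the knockout none of the 10 members differed past the threshold by limma at any time, where 3.79% of all genes did in untreated cells, 3.38% at 4 h and 5.27% at 24 h. At an unadjusted p under 0.05 the counts were 0, 1 and 2. The smallest adjusted p-values were those of Wt1, which read 2.43, 3.11 and 17 in the R-labelled line at 4 h, against 33.2, 21.7 and 18.4 in the knockout. All 6 values are below background (-2.23 ± 0.66, adjusted p = 0.072, and 0.0093 to 0.31 over the alternatives). Wt1 at 24 h had 9.88, 10.2 and 3.13 in the R-labelled line and 30.3, 34.5 and 28 in the knockout, again all below background (adjusted p = 0.061).

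The effect of irradiation was compared within each line. In the wild type, where the genes were bright, Krt7 had the largest difference at 4 h, which did not pass the threshold. Krt7 had 127, 126 and 235 in wild-type cells 4 h after irradiation and 507, 355 and 673 in untreated cells. The groups did not overlap, as for 21.2% of all genes in that comparison. The mean was 155 at 4 h against 495 in untreated cells (-1.67 ± 0.55, unadjusted p = 0.0066, adjusted p = 0.1, where 3.25% of all genes were called).

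The Krt7 result turned on 1 array and on the log scale. Without replicate 1 of the untreated knockout, which read 5.52 and entered only through the shared spread, the adjusted p was 0.029. With 32 added to each intensity before the log it was 0.0039, with the wild-type arrays of both times alone it was 0.33, and without the 5 arrays that stood apart it was 0.35. At 24 h Krt7 had 233, 422 and 454, which overlapped the untreated values (-0.48 ± 0.55, adjusted p = 0.79).

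The other bright members stayed nearer their untreated levels. Upk3b had 9923, 10168 and 13069 in wild-type cells at 4 h, against 18372, 16144 and 14831 in untreated cells. These groups did not overlap, but those of its second probe set did, and the difference of -0.58 ± 0.81 had an adjusted p of 0.79. The SE holds the spread of all lines, which is wide below background. With the 6 wild-type arrays of this comparison alone the Upk3b difference was -0.58 ± 0.20 (adjusted p = 0.39). In that fit Upk1b, Msln, Wt1, Aldh1a1 and Krt14 had log2 differences between -0.31 and 0.26 at 4 h, with SEs of 0.25 to 0.36. At 24 h the same 5 had differences between -0.02 and 0.35, with SEs of 0.22 to 0.39. Shifts well under 1 log2 unit thus cannot be told from the spread, and larger ones can also go uncalled. Krt7 at 4 h, at -1.67 ± 0.37 in the fit of 6 arrays, had a limma adjusted p of 0.33.

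**Figure D3:**
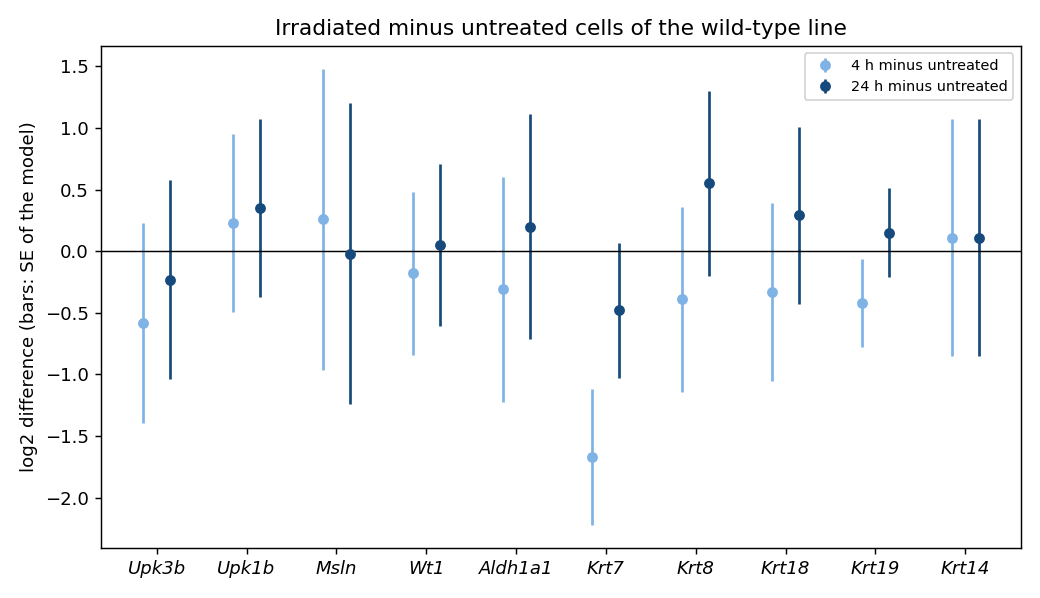
Log2 difference between irradiated and untreated cells of the wild-type line for each of the 10 genes at 4 h and 24 h, with the SE of the model on all 27 arrays as bars. Krt7 at 4 h lies at -1.67, and the bars of most others cross 0.

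Over all 3 lines, both times and 10 members, 0 of 60 irradiation comparisons passed limma's threshold, where 0.775% of all genes' comparisons did, and 5 had an unadjusted p under 0.05. Besides Krt7 in the wild type at 4 h, these were Upk1b and Krt7 in the knockout at 24 h, and Wt1 at 4 h and Krt8 at 24 h in the R-labelled line. Krt7 in the knockout had 50.8, 47.2 and 63 at 24 h against 39.1, 5.52 and 28.6 in untreated cells (1.54 ± 0.55, adjusted p = 0.71). The other 3 compared values that were below background in both groups by their means. The difference in response between lines was called by limma for 0 of 60 comparisons (0.00733% of all genes' comparisons), and 4 had an unadjusted p under 0.05. The smallest adjusted p, 0.62, was that of Krt7 at 4 h in the knockout against the wild type (2.40 ± 0.78).

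Related genes were counted on lists chosen from general knowledge of these tissues, with earlier results of these data known. Of 10 other mesothelial markers, 9 were lower in untreated knockout cells and in the R-labelled line than in the wild type, and none was higher (9.83% of all genes were lower and 7.77% higher in the knockout, and 9.39% each way in the R-labelled line). Their median log2 difference was -6.22 in the knockout and -6.76 in the R-labelled line, against -0.00 and 0.06 over all genes for these lines. Nkain4 had a mean of 4.79 in the knockout, 7.4 in the R-labelled line and 1195 in the wild type, and was at least 24.7-fold lower in both (adjusted p = 2.7e-10 in the knockout and 6.5e-10 in the R-labelled line). Cldn15, a tight junction claudin, had means of 48.7 in the knockout and 71.3 in the R-labelled line, both close to background, and 2505 in the wild type (adjusted p = 8.4e-12 in the knockout and 1e-11 in the R-labelled line). Not every marker was lost to background. Ezr, which links membranes to actin, had means of 2796 in the knockout, 1616 in the R-labelled line and 9706 in the wild type, which is 3.47-fold lower in the knockout and 6.01-fold lower in the R-labelled line.

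The 2 lines without wild-type levels also differed from each other in this list. Pdpn, podoplanin, had a mean of 30.8 in the R-labelled line and 122 in the knockout, at least 2.18-fold lower (-1.98 ± 0.37, adjusted p = 0.0038), and 2224 in the wild type. Ezr was 1.73-fold lower in the R-labelled line than in knockout cells (adjusted p = 0.019), a call that was lost without replicate 0 or 1 of the untreated knockout, without replicate 1 of the untreated R-labelled line or with probe sets averaged (adjusted p from 0.0061 to 0.81). Calb2, calretinin, a mesothelial marker named here after its values were seen, was below background in all 9 group means, from 4.16 to 13.8. The summed intensity of the list over arrays was 2757 to 4748 in the knockout, 1533 to 2834 in the R-labelled line and 22623 to 40946 in the wild type.

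Genes of retinoid metabolism and response, the pathway of Aldh1a1, included 9 of 20 measured that were lower in the knockout and 1 that was higher, and 9 that were lower and 2 that were higher in the R-labelled line (9.83% of all genes were lower and 7.77% higher in the knockout, and 9.39% each way in the R-labelled line). The list's median log2 difference was -1.85 in the knockout and -0.99 in the R-labelled line, against -0.00 and 0.06 over all genes for these lines. Aldh1a2, the main retinaldehyde dehydrogenase of embryonic mesoderm, had a mean of 29.5 in the knockout, 10.5 in the R-labelled line and 3412 in the wild type, at least 70.6-fold lower in both (adjusted p = 4e-07 in the knockout and 2.5e-08 in the R-labelled line). Rarb, a retinoic acid receptor that retinoic acid induces, was at least 8.53-fold lower in both lines (adjusted p = 3.1e-06 in the knockout and 4.8e-05 in the R-labelled line). Dhrs3, a retinaldehyde reductase, was 13.2-fold lower in knockout cells (adjusted p = 9e-06). Rdh10, which makes retinaldehyde from retinol, was 4.72-fold lower in the R-labelled line (adjusted p = 4.7e-06). Neither of them is given here for the other line. Crabp1, a cytosolic binding protein for retinoic acid, had means of 15.7 in the R-labelled line and 185 in knockout cells (adjusted p = 0.012), and of 2029 in the wild type. The values that were higher than in the wild type, of 1 gene in the knockout and 2 in the R-labelled line, are not given here.

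Among transcription factors of the coelomic lining and urogenital ridge, where Wt1 acts, 3 of 11 were lower and 3 higher in the knockout, and 5 were lower and 1 higher in the R-labelled line, with medians of -0.27 in the knockout and -0.02 in the R-labelled line. The shares of all genes were 9.83% lower and 7.77% higher in the knockout, and 9.39% each way in the R-labelled line. Gata4, Gata6 and Tcf21 were lower in both. Gata6 had means of 21.8 in the knockout, 51.7 in the R-labelled line and 2094 in the wild type, at least 43.3-fold lower in the knockout (adjusted p = 6.3e-08), while the mean in the R-labelled line, also lower, lay close to background (adjusted p = 9.6e-07). Tcf21 was at least 32.9-fold lower in both lines, and Gata4 at least 6.41-fold lower. Lhx9 went the other way, with means of 146 in the knockout, 95.1 in the R-labelled line and 21.1 in the wild type (adjusted p = 0.0024 for the knockout and 0.015 for the R-labelled line). Tbx18 was 2.19-fold lower in the R-labelled line than in the knockout (-1.13 ± 0.14, adjusted p = 9.1e-05).

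The epithelial genes outside mesothelium gave a mixed picture. Of 14 other keratins, 4 were lower in the knockout and 3 in the R-labelled line, and none was higher, with medians of -0.20 in the knockout and -0.49 in the R-labelled line. Of all genes, 9.83% were lower in the knockout and 9.39% in the R-labelled line. One of the 4, Krt5, named after its values were seen, was below background in both groups, with means of 6.35 in the knockout and 41.5 in the wild type (adjusted p = 0.041). Krt13 and Krt15 were lost to background in both lines (Krt13 at least 5.09-fold and Krt15 at least 8.97-fold lower). Krt80, which lies next to Krt7 on chromosome 15, had means of 77.6 in the knockout, 64.3 in the R-labelled line and 148 in the wild type. Its call in the knockout (adjusted p = 0.032) was lost under both other normalizations, without replicate 0 or 1 of the untreated knockout and without replicate 0 or 2 of the untreated wild type (adjusted p from 0.0033 to 0.14). None of the 3 other uroplakins passed the threshold in either line by limma, with medians of 0.09 in the knockout and 0.69 in the R-labelled line. Of 40 epithelial junction and regulator genes measured, 4 were lower and 2 higher in each line, which is near the share of all genes, and their median difference was -0.06 in the knockout and -0.15 in the R-labelled line. P-cadherin, Cdh3, was 2.05-fold lower in the knockout and 3.06-fold lower in the R-labelled line. Plakoglobin, Jup, was 2.24-fold lower in the knockout and 2.6-fold lower in the R-labelled line. Both examples are on the lower side, while the 2 genes that were higher in each line are not named here. Cdh1, E-cadherin, named after its values were seen, was below background in all lines, with means of 6.71 in the knockout, 8.28 in the R-labelled line and 23.9 in the wild type in untreated cells.

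Transcription factors of the epithelial-mesenchymal transition, several of which repress epithelial genes, were higher in part. Of 6 measured, 3 were higher in both lines, 1 was lower in the knockout and none was lower in the R-labelled line. Of all genes, 7.77% were higher and 9.83% lower in the knockout, and 9.39% each way in the R-labelled line. The list's median log2 difference was 0.84 in the knockout and 0.50 in the R-labelled line, against -0.00 and 0.06 over all genes. Snai1 had means of 1815 in the knockout, 1630 in the R-labelled line and 451 in the wild type, which is 4.02-fold higher in the knockout (adjusted p = 0.00038) and 3.61-fold higher in the R-labelled line (adjusted p = 0.00079). Snai2 was 1.85-fold higher in the knockout and 2.27-fold higher in the R-labelled line. Twist2 was 2.07-fold higher in the knockout and 1.48-fold higher in the R-labelled line, and the call in the R-labelled line was lost without replicate 0 of the untreated R-labelled line or replicate 1 of the untreated wild type (adjusted p from 0.00071 to 0.24). Zeb1 was 1.51-fold lower in knockout cells (adjusted p = 0.00022).

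Markers of other cell types were measured beside these. Of 17 fibroblast markers, 2 were lower and 2 higher in the knockout, and 3 were lower and 3 higher in the R-labelled line, with medians of 0.06 in the knockout and 0.01 in the R-labelled line. Of all genes, 9.83% were lower and 7.77% higher in the knockout, and 9.39% were each way in the R-labelled line. Dcn, decorin, had means of 4425 in the knockout, 1206 in the R-labelled line and 14620 in the wild type, and Thy1 had 12077 in the knockout, 6400 in the R-labelled line and 3349 in the wild type. Of 6 endothelial markers only Kdr passed background in any group, and it was lower in both lines (at least 5.75-fold in the knockout and 5.52-fold in the R-labelled line). Of 6 leukocyte markers Cd68 was lower in both lines, with means of 47.6 in the knockout, 41.9 in the R-labelled line and 91.3 in the wild type, and Itgam, named after its values were seen and below background in all group means, was higher in the R-labelled line. Of 6 muscle markers Tnnt2 was higher in both lines, with means of 274 in the knockout, 237 in the R-labelled line and 61 in the wild type, and Myl7 at least 10.8-fold lower in both. The Tnnt2 calls (adjusted p = 0.017 in the knockout and 0.031 in the R-labelled line) were lost without the 5 arrays that stood apart. Of 6 pluripotent cell markers 1 was lower in the knockout (Nanog, named after its values were seen, with untreated means below background in all lines) and none in the R-labelled line. The summed intensity of the endothelial list was 64.9 to 154 in the knockout, 98 to 153 in the R-labelled line and 259 to 680 in the wild type, and that of the leukocyte list 221 to 389 in the knockout, 172 to 322 in the R-labelled line and 301 to 470 in the wild type. The part of other cell types in the members' loss was not tested.

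**Figure D4:**
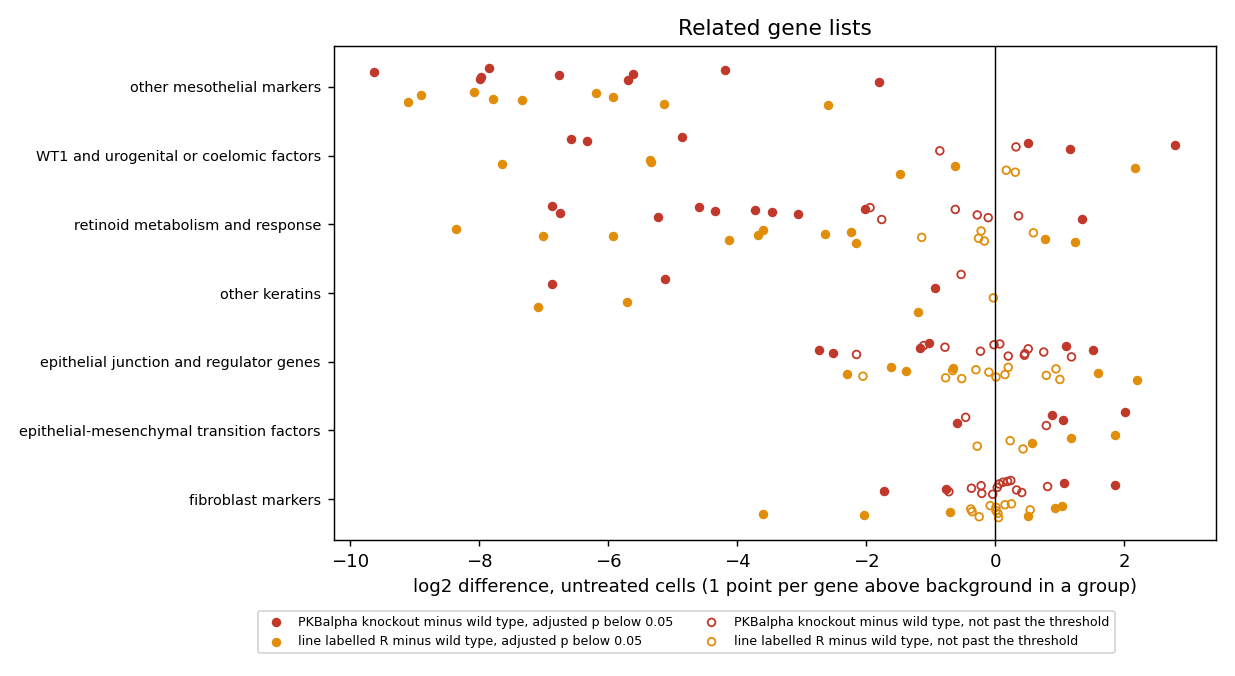
Log2 difference from the wild type in untreated cells for genes of 7 lists with at least 1 group mean above background, 1 point per gene and line, filled where the adjusted p is below 0.05. The mesothelial list lies left of 0 in both lines, while the fibroblast and junction lists lie on both sides of 0.

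Of the 145 listed genes measured, 5 were called after irradiation, all in the wild type at 4 h. That is 3.45% of them, near the 3.25% of all genes called in that comparison. Cldn15 had a mean of 1178 at 4 h against 2505 in untreated cells (-1.09 ± 0.24, adjusted p = 0.017). It was the mesothelial marker among them. The others were Snai2 (1.33-fold lower), Col3a1 (1.43-fold lower), Thy1 (2.97-fold lower) and Dcn (2.11-fold lower). All 5 calls were lost in a fit of the 6 compared arrays alone, and those of Cldn15, Snai2 and Dcn also without the 5 arrays that stood apart.

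Profiles over the 9 group means were compared between genes after each was centred on its own mean, by the root mean square (RMS) difference on the log2 scale. The nearest gene to Msln was Akr1c18 (0.29), followed by Gata6 (0.40). Wt1 was nearest to Anxa3 (0.40), Mmp8 (0.55) and the mesothelial factor Bnc1 (0.59). Krt14 was nearest to Tinagl1 and Pde3b (0.33 each), and Krt7 to Aldh1a7 and Kank4 (0.37 each). Upk3b was nearest to Stk26 (0.73), Rspo1 and Efemp1 (0.77 each), and Upk1b to Igf2 (0.59), Akt1 (0.62) and Nnat (0.63). Aldh1a1 was nearest to Myrf (0.63). Krt8 and Krt18 differed by 0.38. Krt19 was nearest to Gramd1b (0.07), whose untreated means were 165 in the knockout, 187 in the R-labelled line and 133 in the wild type. These values describe 9 groups that share lines, and the distance of genes below background rests on noise.

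The nearest measured genes that flank members, by the order of RefSeq genes on GRCm38.p6, did not share one pattern. Positions given here and above as next to, beside or between genes count only measured genes, and others can lie in the gaps. Rpusd1 and Ciao3, on either side of Msln on chromosome 17, did not pass the threshold, with means of 539 and 489 in the knockout, 539 and 503 in the R-labelled line, and 524 and 610 in the wild type. B4galt4 beside Upk1b on chromosome 16 was 6.39-fold lower in the knockout (adjusted p = 1.7e-07) and 4.77-fold lower in the R-labelled line (adjusted p = 1.4e-06). Dtx2 beside Upk3b on chromosome 5 was 2.12-fold lower in the knockout and 1.67-fold lower in the R-labelled line. Eif4b, next to Krt18, had means of 8186 in the knockout, 8365 in the R-labelled line and 8677 in the wild type (adjusted p = 0.71 for the knockout and 0.83 for the R-labelled line). Anxa1, next to Aldh1a1, was 1.52-fold lower in the R-labelled line (adjusted p = 0.001) and had an adjusted p of 0.36 in the knockout.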

How the data were processed

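RNA of 27 samples was hybridised to Affymetrix arrays, per the labels. The authors deposited linear intensity values with a trimmed mean (2% off each end) of 500.003 on each array. RMA and GCRMA are named in the submitters' processing notes without a role, and the summary method is not known. Values were taken to log2 with no offset or further normalization. Genes were named from the platform annotation (single symbols only) and represented by the brightest probe set over all arrays, 18193 genes in all. limma 3.58.1 in R 4.3.3 fitted 9 group means on all arrays (18 residual degrees of freedom), with two-sided contrasts, after a test on simulated data. Probe sets were also fitted singly. The members and lists were chosen with earlier results of these data known. All members are named, with up to 4 genes per list and line comparison by smallest p, any list gene called after irradiation and up to 3 nearest profiles. Alternatives were offset, normalization, filters, prior trend, compared arrays only, probe set mean, replicate block, and leaving out each replicate or the 5 arrays. Arrays have no counting depth, and their number limits the precision. Replicate numbers were not taken as pairs: the labels name no shared batch, and same-numbered samples (108 pairs) had correlations of deviations between -0.79 and 0.83 (median 0.03).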

Additional observations from a re-analysis of the deposited data

How the results depend on the processing

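No called difference changed sign, nor did the untested line differences of Upk3b and Aldh1a1. For differences that stayed uncalled, the sign was not compared. Keeping only genes above the median level left 1 member called, Upk1b, in each of the 6 comparisons of a line with the wild type, since that filter removes most members. Between the R-labelled line and the knockout, 1 member (Wt1) was called at 4 h with an intensity trend in the prior variance, with genes filtered on a group mean above background and without the 5 arrays that stood apart. At 24 h it was 1 (Wt1) with the trend and with the filter on background. Leaving out 1 replicate each gave 0 to 1 members for both of these comparisons. The calls came without replicate 1 of the untreated or replicate 2 of the 4 h R-labelled line (Wt1, at both times) and without replicate 0 of the 24 h knockout (Upk1b, 24 h). Of the irradiation comparisons 1 of 60 was called with an offset of 32, and 0 to 1 when 1 replicate was left out, as given for Krt7. Krt8 gained calls where probe sets were averaged. Against the wild type, leaving out 1 replicate gave 5 to 6 members in the untreated knockout, 5 in the untreated R-labelled line, 5 to 6 in the knockout at 24 h and 6 to 7 in the R-labelled line at 24 h.

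Of 7581 member values under the alternatives, 7537 counted as unchanged, 9 lost a call, 18 gained one and 17 moved. A called value was unchanged if it kept its call and direction, and an uncalled one if it stayed uncalled in either direction. For the untested line differences of Upk3b and Aldh1a1, unchanged meant a shift below the gene's standard deviation within groups, and moved a larger shift. Of 2744 values of listed genes, 2619 kept their call and 125 lost it. With the replicate number as a block, the count in the untreated knockout was 6 and in the untreated R-labelled line 5, and the block changed no count of members. Correlations of each array with arrays of other groups were averaged by replicate number. The mean was highest for the array's own number in 14 of 27 arrays, which is a hint from the data and not the design. Levels below 74.5 lie near background, so changes of Krt8, Krt18 and Krt19 are poorly resolved.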
